A study of Mus musculus with 10 samples.

Results

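Ctla2a, Ctla2b, Plac8, Plscr2 and Kng1 were followed across freshly sorted and cultured mouse kidney cells, because these 5 genes were chosen by their large rise in signal in a 19-day culture of nephron progenitors. The members are all non-control probes of the array that carry one of these gene names. The 5 genes are part of 34650 gene names on the array, and they had 7 of its 55681 probes: 1 each for Ctla2a, Ctla2b and Plscr2, and 2 each for Plac8 and Kng1. Each probe was read separately. All 7 passed the filter on dim probes, which asked for detection on both arrays of some group, and entered the fit of 39818 probes, but Kng1 variant 1 did so only through the 19-day culture. Since the genes were picked for their 19-day values, every value against the 19-day arrays, or against the E11.5 cells the culture started from, is given below as a description with no test. Tests were made only between the other groups. Which groups the rise was read against is not fully known, so those tests may not be independent of the choice either. Their fit also takes its spread from all arrays.

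Expression was measured on 10 single-colour arrays, 2 for each of 5 groups. All cells came from Six2-GFP transgenic mice on a mixed C57BL6J/ICR background. The transcription factor Six2 maintains the self-renewal of nephron progenitors, and the transgene marks cells with Six2 promoter activity. The groups were GFP-positive progenitors sorted at E11.5, GFP-positive progenitors sorted at P0, GFP-negative cells sorted at P0 (the P0 non-progenitors), and cultures of the E11.5 GFP-positive cells, grown in conditioned medium for 8 days or for 19 days. The GFP-negative group is a mixture of all other sorted cell types. The labels do not state whether cultured cells were sorted again, nor whether the 2 samples of a group came from separate litters or cultures, so the p-values measure only the spread between these samples. In such bulk samples, fewer cells of a type and less RNA per cell cannot be told apart.

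CTLA-2 proteins resemble the inhibitory propeptide of cathepsin L without the protease itself, and they inhibit cysteine proteases of that kind. They were first found in activated T cells and mast cells. Plac8 encodes a small cysteine-rich protein known from placenta and from myeloid and epithelial cells. Plscr2 belongs to the phospholipid scramblases, which move lipids between the leaflets of a membrane. Kng1 encodes kininogen, a secreted protein of cystatin type that is made mainly in the liver. Kallikreins cut bradykinin out of it, which acts through the receptors B1 and B2.

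The probes that give the values are shown first, since each gene is read through 1 or 2 stretches of its transcript. Positions follow the array's annotation, which uses the mouse assembly mm9. Probes that may lie in an untranslated end are printed as their last 30 bases and the other 2 in full, and capitals mark the polyadenylation hexamer AATAAA.
Ctla2a, chr13:61036134-61036193, minus strand: catgcAATAAAactactagttttggcagtc
Ctla2b, chr13:60997410-60997469, minus strand: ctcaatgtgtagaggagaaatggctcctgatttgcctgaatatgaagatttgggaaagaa
Plac8 5′ probe, chr5:101001165-101001224, minus strand: caggaccggttctgcccaacccttttgaac
Plac8 3′ probe, chr5:100982797-100982856, minus strand: ccatatcatcaaatattggagcctataatt
Plscr2, chr9:92192504-92192563, plus strand: tgggaaattctattcAATAAAatgctaatg
Kng1 variant 1, chr16:23079732-23079791, plus strand: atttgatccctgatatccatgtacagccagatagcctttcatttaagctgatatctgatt
Kng1 variant 2, chr16:23081700-23081759, plus strand: tcctagtggaAATAAAattcagacttgatg

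The hexamer, the usual signal for adding the poly(A) tail, stood in the printed stretch of the Ctla2a, Plscr2 and Kng1 variant 2 probes. The Plac8 probes read separate stretches of the gene, and the first 50 bases of the 5′ probe match the RefSeq Plac8 sequence (GRCm38.p6) from position 1 of an annotated gene start. The 2 Kng1 probes are named here after the transcript variants of the design. Each of them also lists 1 RefSeq accession that now belongs to Kng2, the neighbouring kininogen gene, so signal from Kng1 and Kng2 may not be fully separated by the annotation. The probes were aligned only with each other, and not with the transcript of the related gene. Whether a probe also reads the related gene was therefore not tested. In the best local alignment, the Ctla2a and Ctla2b probes share 7 of 8 aligned bases, the Kng1 variant 1 and Kng2 probes 7 of 7, and the Kng1 variant 2 and Kng2 probes 7 of 8.

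Ctla2a and Ctla2b are near-copies on chromosome 13, and the likeness extends into the sequence before their starts. The 250 bases upstream of each, from RefSeq on GRCm38.p6, minus strand, are printed because both genes were high in the same 2 groups. Capitals mark TGACTCA, a match to the AP-1 motif TGANTCA.
Ctla2a, chr13:60936626-60936875: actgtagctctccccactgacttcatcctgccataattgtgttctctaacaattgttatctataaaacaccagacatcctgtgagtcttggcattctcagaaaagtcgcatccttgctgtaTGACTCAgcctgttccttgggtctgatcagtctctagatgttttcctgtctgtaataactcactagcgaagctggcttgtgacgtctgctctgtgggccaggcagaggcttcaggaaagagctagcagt
Ctla2b, chr13:60897448-60897697: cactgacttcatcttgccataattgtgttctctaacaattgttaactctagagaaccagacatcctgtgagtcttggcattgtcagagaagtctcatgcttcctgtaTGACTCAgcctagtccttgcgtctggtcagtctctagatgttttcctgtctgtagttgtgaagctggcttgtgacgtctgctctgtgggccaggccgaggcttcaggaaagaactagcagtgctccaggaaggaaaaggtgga

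When aligned, the 2 windows had 208 identical and 20 mismatched bases with 8 gap bases, which is 91.2% identity over paired bases. RefSeq annotates 2 Ctla2a starts, and the window printed is that of the first. TGACTCA began 129 bases before this Ctla2a start and 143 bases before the Ctla2b start. Of 32851 promoter windows of 250 bases, 6.75% held TGANTCA on either strand. The TATA motif TATAAA, held by 12.4% of the windows, was found 190 bases before this Ctla2a start and not in the Ctla2b window. The STAT motif TTCNNNGAA, held by 7.02%, occurred once in the Ctla2a window as TTCTCAGAA, 157 bases before the start, and not in the Ctla2b window. Before the second Ctla2a start, the AP-1 match began 188 bases, the TATA match 249 bases and the STAT match 216 bases upstream. No match to any of the 3 motifs, searched on both strands, lay in the 2 Plac8 windows. These matches are letters in a window and were not tested as binding sites.

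**Figure D1:**
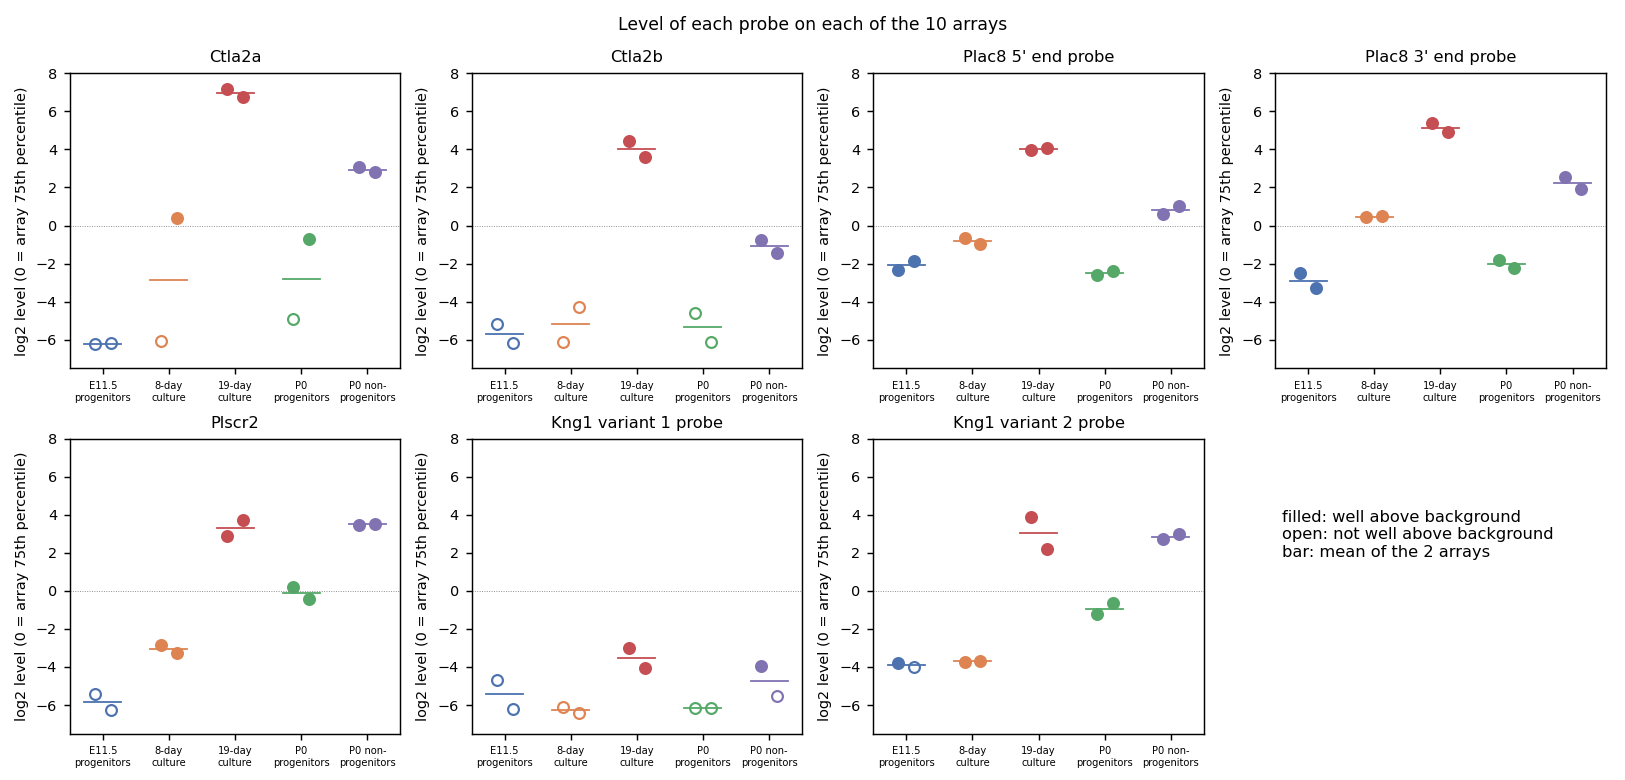
Level of each of the 7 probes on each of the 10 arrays, as log2 of the processed intensity minus the array's 75th percentile. Filled points are well above background, open points are not, and the bars are means of 2 arrays; all 7 probes were highest or second highest in the 19-day culture, and the 2 Ctla2a points lie far apart in the 8-day culture and in the P0 progenitors.

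Ctla2a was at background in E11.5 progenitors and bright in the 19-day culture. Its processed intensity was 3.00 and 3.20 on the E11.5 arrays, where it was not well above background, and 48276 and 33313 on the 19-day arrays. In levels, meaning log2 intensity relative to the array's 75th percentile, these were -6.21 and -6.19 against 7.15 and 6.77. The P0 non-progenitors stood next, at 3.05 and 2.81. The 19-day culture was at least 2745-fold above E11.5 progenitors, a lower bound. Where a group was undetected, such bounds take for each array the dimmest level that was still called well above background. Against the P0 non-progenitors it was 16.3-fold higher, and the 2 groups did not overlap.

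In the other 2 groups Ctla2a differed between the samples of a group. The 8-day arrays read -6.08, not above background, and 0.41. The P0 progenitor arrays read -4.90, not above background, and -0.68. The first pair was 6.49 log2 units apart and the second 4.21, while the root mean square gap over all tested probes was 1.16 in the 8-day culture and 0.903 in P0 progenitors. The 8-day replicates were on different slides, and the high one shared its slide with the 19-day arrays; the part of the slide in this gap was not tested. The P0 progenitor arrays were on the same slide.

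Ctla2b had the same order of groups at the top. It was not well above background on any array of the E11.5 progenitors (-5.17 and -6.19), the P0 progenitors (-4.58 and -6.11) or the 8-day culture (-6.10 and -4.28). The P0 non-progenitors read -0.75 and -1.45 and the 19-day culture 4.43 and 3.59. The 19-day arrays were at least 356-fold above the E11.5 arrays, at least 290-fold above the 8-day arrays and 34.4-fold above the P0 non-progenitors. The 3 groups at background have no order among them.

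Plac8 was detected on all 10 arrays by both probes, and its 2 probes gave the same picture. The 3′ probe read -2.51 and -3.30 in E11.5 progenitors, -1.82 and -2.22 in P0 progenitors, 0.44 and 0.50 in the 8-day culture, 2.54 and 1.93 in P0 non-progenitors and 5.39 and 4.89 in the 19-day culture. The 5′ probe read -2.33 and -1.87, -2.62 and -2.38, -0.65 and -0.95, 0.59 and 1.01, and 3.98 and 4.06 in the same groups. Both probes therefore stepped up from E11.5 to 8 days and again to 19 days, with no overlap between these groups. The 8-day arrays were 10.4-fold (3′ probe) and 2.46-fold (5′ probe) above the E11.5 arrays, and the 19-day arrays 25.5-fold and 28.2-fold above the 8-day arrays. Against the P0 non-progenitors, the 19-day culture was 7.49-fold and 9.28-fold higher. The probes parted only for P0 against E11.5 progenitors, where the 3′ probe was 1.85-fold higher at P0 and the 5′ probe 1.32-fold lower.

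Plscr2 was not detected at E11.5 and was detected on both arrays of every other group. The E11.5 arrays read -5.40 and -6.26 and were not above background, the 8-day arrays -2.85 and -3.29, the P0 progenitors 0.18 and -0.41, the 19-day arrays 2.86 and 3.70, and the P0 non-progenitors 3.47 and 3.53. The 19-day culture and the P0 non-progenitors overlapped, with means 0.22 log2 units apart. The 19-day culture was at least 214-fold above E11.5 progenitors and 81.6-fold above the 8-day culture. P0 progenitors were at least 20.4-fold above E11.5 progenitors, and the 8-day culture at least 2.63-fold.

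Kng1 variant 2 stayed near its starting level at 8 days and was high at 19 days. It read -3.77 and -4.01 in E11.5 progenitors (1 of 2 arrays well above background), -3.73 and -3.68 in the 8-day culture, -1.21 and -0.65 in P0 progenitors, 2.71 and 2.96 in P0 non-progenitors, and 3.90 and 2.22 in the 19-day culture. The 8-day level was 1.14-fold above E11.5, while the 19-day level was 109-fold above the 8-day level and 124-fold above E11.5. The 19-day arrays enclosed both P0 non-progenitor values, so these groups did not separate. The 19-day samples were 1.68 log2 units apart.

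Kng1 variant 1 was near background everywhere. It was well above background on both 19-day arrays (-3.02 and -4.03) and on 1 P0 non-progenitor array (-3.93, the other at -5.51). The E11.5 (-4.68 and -6.20), P0 progenitor (-6.14 and -6.17) and 8-day arrays (-6.10 and -6.40) were not. The 19-day culture was at least 1.88-fold above E11.5 progenitors. The gain carried by the gene name Kng1 thus rests on the variant 2 probe.

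Against E11.5 progenitors, all 7 probes were higher on both 19-day arrays than on both E11.5 arrays, as were 29.8% of all tested probes. That count was fixed by how the genes were chosen, and nothing is read from it. The median difference was 8.04 log2 units over the 7 probes and 0.02 over all tested probes. The same held for 19 against 8 days, with 7 of 7 probes (25.2% of all). At 8 days 5 of 7 probes were above E11.5 without overlap (24.3% of all), with a median of 1.30. In P0 progenitors 4 of 7 were (20.6% of all), and in P0 non-progenitors 6 of 7 (21% of all). A choice by the rise from E11.5 favours low E11.5 values, so nothing is read from these counts either. Of the 5 at 8 days, Ctla2a cleared E11.5 narrowly, at -6.08 (not above background) against -6.19. Kng1 variant 2 did so at -3.73 against -3.77. Above the P0 non-progenitors, 4 of 7 stood clear at 19 days (38.2% of all). These comparisons share arrays and are not independent of each other.

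At P0, 5 of the 7 probes were higher in the GFP-negative cells than in the progenitors, by limma with Benjamini-Hochberg adjustment over all 39818 probes at 0.05, where 3.45% of all probes were called higher, 3.64% lower and 7.09% either way. Plac8 had the lowest adjusted p-values of the members and was 19.1-fold higher by the 3′ probe (difference 4.26 ± 0.37 log2, SE, adjusted p = 0.00164) and 9.84-fold by the 5′ probe (3.30 ± 0.30, adjusted p = 0.00176). Plscr2 was 12.2-fold higher (3.61 ± 0.43, adjusted p = 0.00441) and Kng1 variant 2 was 13.6-fold higher (3.77 ± 0.53, adjusted p = 0.00772). Ctla2b was at least 9.58-fold higher (4.25 ± 0.79, adjusted p = 0.0209). The median over the 7 probes was 3.77 and over all tested probes -0.12.

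Ctla2a and Kng1 variant 1 did not pass this test. The Ctla2a difference was 5.72 ± 2.01 log2 (95% interval 1.03 to 10.4, adjusted p = 0.156), larger than that of any called member probe but with the wide spread described above. Both non-progenitor arrays lay above both progenitor arrays. The Ctla2a difference passed after normexp background correction (adjusted p = 0.0250), with the slide as a block (0.0431) and without either 8-day array. In no other setting tried did it pass. The slide block and the loss of an 8-day array both take the gap between the 8-day samples out of the spread. They are therefore not separate support. Ctla2b lost its call when any 1 of the 4 P0 arrays was left out, with adjusted p from 0.0532 to 0.130. Kng1 variant 2 lost it without P0 progenitor replicate 1 (0.0629) or P0 non-progenitor replicate 2 (0.0574), so that 3 probes were called without either of these 2 arrays.

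**Figure D2:**
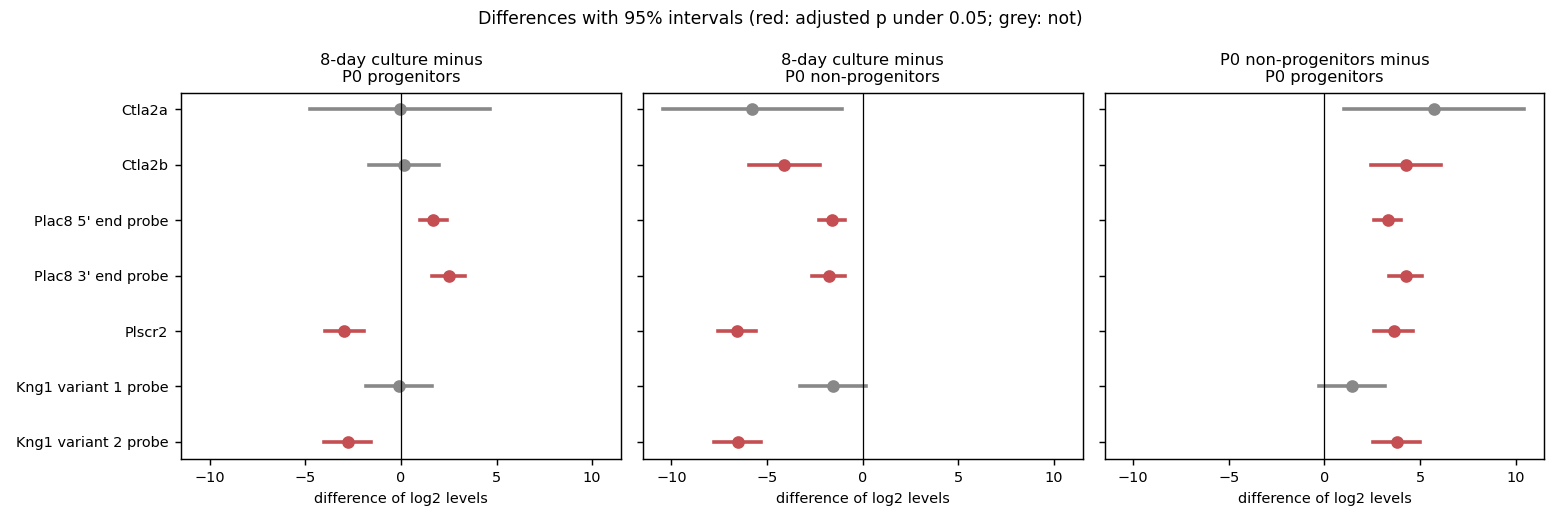
Differences of log2 levels between groups for each probe, with 95% intervals, in the 3 comparisons tested by limma. Red marks an adjusted p under 0.05 over all tested probes; 5 probes were higher in P0 non-progenitors than in P0 progenitors, 5 were lower in the 8-day culture than in P0 non-progenitors, and the Ctla2a intervals are the widest.

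The 8-day culture stood below the P0 non-progenitors for 5 of 7 probes and above them for 0 (0 also at an unadjusted p under 0.05), where 4.81% of all probes were called lower, 6.56% higher and 11.4% either way (limma, adjusted over all probes). Plscr2 was 95.1-fold lower (-6.57 ± 0.43 log2, adjusted p = 0.000312) and Kng1 variant 2 was 93.1-fold lower (-6.54 ± 0.53, adjusted p = 0.000529). Ctla2b was at least 8.41-fold lower (-4.09 ± 0.79, adjusted p = 0.0155). The differences of Plac8 were smaller, 3.40-fold by the 3′ probe (-1.77 ± 0.37, adjusted p = 0.0213) and 3.04-fold by the 5′ probe (-1.60 ± 0.30, adjusted p = 0.0134). Ctla2a (-5.77 ± 2.01, adjusted p = 0.121) and Kng1 variant 1 (-1.53 ± 0.74, adjusted p = 0.248) did not pass. The median over the 7 probes was -4.09, against 0.25 over all tested probes.

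Plscr2 and Kng1 variant 2 passed with any single array left out and within slide 1, where 8-day replicate 1 alone was set against the P0 cells (adjusted p = 0.00732 and 0.00622). Within slide 1 the Plac8 probes were no longer called (adjusted p = 0.118 for the 3′ and 0.124 for the 5′ probe), Ctla2b still was (0.0345), and Ctla2a, whose only array there was the one at background, passed (-9.01 log2, adjusted p = 0.0386). Without P0 non-progenitor replicate 1, P0 non-progenitor replicate 2 or 8-day replicate 1, 3 of the 7 probes were called. Ctla2b lost its call in each of these 3 cases (adjusted p = 0.0986, 0.0584 and 0.0683), Plac8 3′ without P0 non-progenitor replicate 1 (0.132) or either 8-day array (0.0813 and 0.0798), and Plac8 5′ without P0 non-progenitor replicate 2 (0.0888) or 8-day replicate 2 (0.0661).

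Between the 8-day culture and P0 progenitors the 7 probes went 3 ways (limma, adjusted over all probes). Both Plac8 probes were higher in culture, as were 2.1% of all probes: 5.61-fold by the 3′ probe (2.49 ± 0.37 log2, adjusted p = 0.0167) and 3.24-fold by the 5′ probe (1.70 ± 0.30, adjusted p = 0.0283). Plscr2 was 7.77-fold lower (-2.96 ± 0.43, adjusted p = 0.0164) and Kng1 variant 2 was 6.83-fold lower (-2.77 ± 0.53, adjusted p = 0.0361), where 1.4% of all probes were called lower and 3.5% either way. For Ctla2a the difference was -0.05 ± 2.01 (95% interval -4.74 to 4.65), an interval too wide to say whether the groups differ. Ctla2b and Kng1 variant 1 were not above background in either group.

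Of the 4 calls in this comparison 0 held when 1 of the P0 progenitor or 8-day arrays was left out, nor with a slide block, while all 4 probes still had an unadjusted p under 0.05 in each of these fits. The differences kept their size. Plac8 3′ was between 2.29 and 2.69 log2 units and Plscr2 between -3.26 and -2.66. Within slide 1 the adjusted p was 0.102 for Plac8 3′, 0.121 for Plac8 5′, 0.0858 for Plscr2 and 0.0585 for Kng1 variant 2. Calls were also lost without arrays of other groups, for Plac8 5′ without either 19-day array (0.0524 and 0.0522) and Kng1 variant 2 without either P0 non-progenitor array (0.0670 and 0.0672).

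Genes related to the members by function were read beside them, and markers of cell types further below. For all these lists, 3.45% of all probes were called higher and 3.64% lower in P0 non-progenitors against P0 progenitors (all-probe median -0.12). In the 8-day culture 6.56% were called higher and 4.81% lower against P0 non-progenitors (median 0.25). Against P0 progenitors 2.1% were called higher and 1.4% lower (median 0.12). Among 10 papain-family cathepsins, the proteases that CTLA-2 proteins resemble in their propeptide, 3 were higher and 1 lower in P0 non-progenitors than in P0 progenitors (median 1.03, against -0.12 over all probes). Ctss, a cathepsin of antigen-presenting cells, was 113-fold higher there, with 1 of 2 progenitor arrays above background (6.82 ± 0.71 log2, limma adjusted p = 0.00266). Ctsf was 3.19-fold lower there, and it was the 1 cathepsin called between the 8-day culture and P0 progenitors, 6.49-fold lower in culture. Cathepsin L itself read 2.23 and 1.64 in E11.5 progenitors, 3.97 and 4.07 in P0 progenitors, 3.79 and 4.01 in P0 non-progenitors, 3.77 and 3.18 in the 8-day culture and 4.47 and 4.52 at 19 days. Ctsl was called in none of the 3 comparisons. None of the 8 placental cathepsins was above background on both arrays of any group.

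Cystatins, the other family of cysteine protease inhibitors, had 9 of 16 listed genes measured. Of these 9, 4 were higher in P0 non-progenitors than in P0 progenitors: Stfa1, Stfa2, Stfa3 and Kng2 (median of the 9, 0.25). The stefins Stfa1 to Stfa3 are inhibitors known from neutrophils. Stfa2 was 53.8-fold higher, while on the 19-day arrays it read -3.92 and -3.77, near its E11.5 values of -3.94 and -3.83. Stfa1, Stfa2, Stfa3 and Kng2 were also the 4 called lower in the 8-day culture than in P0 non-progenitors. Between the 8-day culture and P0 progenitors 0 of 9 passed limma's test, and 0 had an unadjusted p under 0.05. Cst3, the widely secreted cystatin C, read 3.32 and 3.80 at E11.5 and 4.70 and 5.28 at 19 days.

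The probe of Kng2, the second kininogen gene, was high in the same groups as Kng1 variant 2. This probe also lists a RefSeq entry that now belongs to Kng1, so signal from Kng1 and Kng2 may not be fully separated here either. Kng2 was not above background in E11.5 progenitors (-6.56 and -5.85) or in the 8-day culture (-6.39 and -6.69). It read -2.96 and, not above background, -6.18 in P0 progenitors. It was 0.60 and 1.02 in P0 non-progenitors and 1.51 and -0.39 at 19 days. Kng2 was 41.6-fold higher in P0 non-progenitors than in P0 progenitors (5.38 ± 1.04 log2, limma adjusted p = 0.0243). In the 19-day culture the first replicate was the higher one for Kng1 variant 2, Kng1 variant 1, Kng2 and Serping1. Of the other kallikrein-kinin genes above background on a 19-day array, Ace and Prcp went this way, and Klkb1, Klk1, Mme and Cpm the other way. Among the other members, Ctla2a, Ctla2b and the Plac8 3′ probe were also higher in the first replicate, and Plscr2 and the Plac8 5′ probe in the second.

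**Figure D3:**
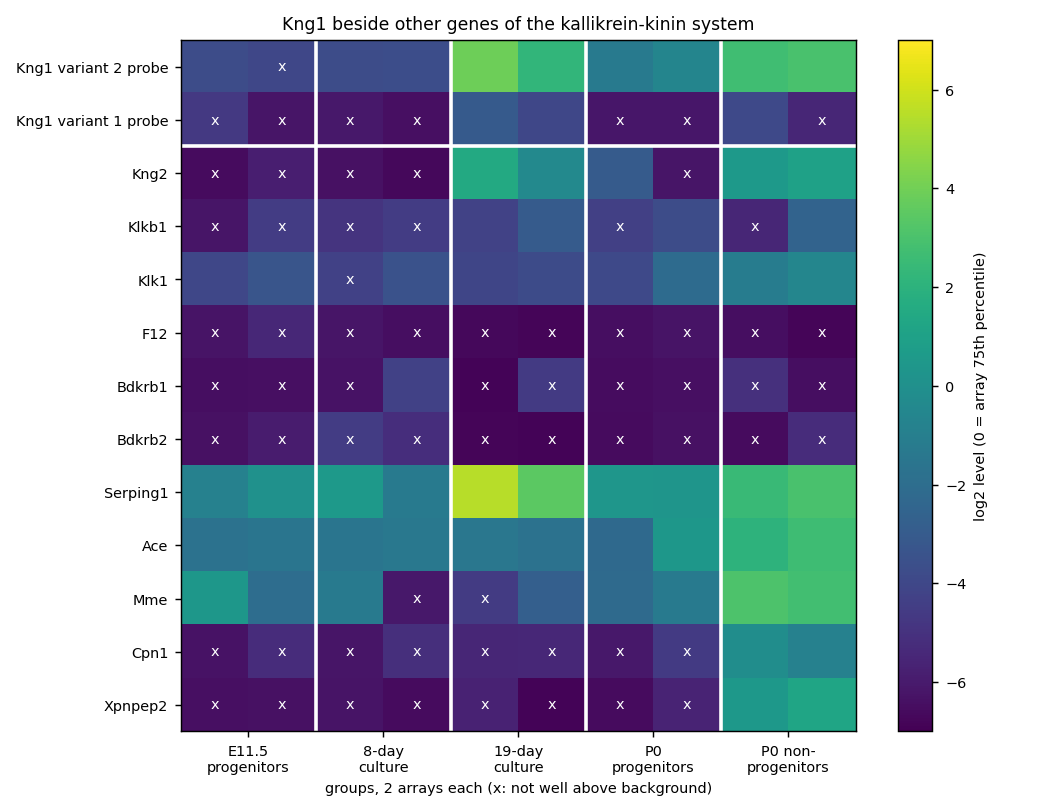
Levels of the 2 Kng1 probes and of 11 genes of the kallikrein-kinin system on the 10 arrays, as log2 relative to the array's 75th percentile, with x where a gene was not well above background. Rows are to be read along, not against each other. Kng1 variant 2, Kng2 and Serping1 are high in the 19-day culture and in P0 non-progenitors, and Kng1 variant 1 is low throughout. Ace, Mme, Cpn1 and Xpnpep2 are high in P0 non-progenitors, and F12 and Bdkrb2 are at background throughout. Serping1 and Mme were not called between the P0 groups (limma adjusted p = 0.130 and 0.127).

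Of 14 other genes of the kallikrein-kinin system, 10 were measured. Between P0 non-progenitors and P0 progenitors 4 of the 10 were higher and 0 lower (median 2.82). They were Kng2, the kinin-degrading enzymes Ace (9.52-fold) and Cpn1 (at least 14.7-fold), and the aminopeptidase Xpnpep2 (at least 37.4-fold). In the 8-day culture 7 of 10 were lower than in P0 non-progenitors, and 0 of 10 passed against P0 progenitors (0 also at an unadjusted p under 0.05, limma). Not all were high with Kng1 in the 19-day culture. Xpnpep2 (-5.65 and -6.85) and Cpn1 (-5.47 and -5.46) were not above background there, Ace read -1.43 and -1.71, close to its E11.5 values of -1.73 and -1.55, and Serping1, which inhibits plasma kallikrein, read 5.52 and 3.49 against -0.86 and 0.10 at E11.5. Plasma kallikrein, Klkb1, was above background on both 19-day arrays and on 2 of the other 8. Among the kinin receptors Bdkrb2 was above background on no array and Bdkrb1 on 1, an 8-day array.

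Of 12 other scramblases and lipid flippases, 9 were measured. Between the P0 groups 0 passed limma's test (median 1.33) and 2 had an unadjusted p under 0.05. In the 8-day culture 1 of 9, the flippase Atp8a1, was called, 1.51-fold above P0 progenitors (limma adjusted p = 0.0498) and 1.48-fold above P0 non-progenitors. One Plscr1 probe read 2.04 and 2.26 at E11.5 and 3.56 and 2.51 at 19 days, and the other 2.27 and 2.40 against 3.29 and 2.18, which overlap. The 2 Plscr3 probes disagreed, with 2.38 and 2.16 at E11.5 against 3.36 and 3.18 at 19 days for one and -1.02 and -1.29 against -2.61 and -1.76 for the other. Plscr4 was not above background at E11.5 (-4.96 and -4.53) and read -1.91 and -2.58 at 19 days. For Plac8 the related genes were few: Cnfn read -3.80 and -3.24 at E11.5 and -3.11 and -3.40 at 19 days, and Plac8l1 was above background on 1 of the 10 arrays.

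Some markers of other cell types were higher, like 5 of the member probes, in the P0 non-progenitors than in the P0 progenitors. Some of each list were above background at 19 days. Of 12 endothelial markers, 9 were higher and 0 lower in P0 non-progenitors than in P0 progenitors, among them Cdh5 (134-fold, with 1 of 2 progenitor arrays above background) and Tie1 (at least 62.0-fold). Their summed level, as linear multiples of the 75th percentile, was 54.9 and 50.9 in P0 non-progenitors and between 7.16 and 11.8 on the other 8 arrays, with 8.92 and 8.83 at 19 days. On each 19-day array 9 of the 12 were above background, against 6 and 8 at E11.5, 5 and 7 at 8 days and all 12 in P0 non-progenitors. Pecam1 (-3.14 and -2.97), Flt1 (-4.29 and -2.42) and Emcn (-3.75 and -0.72) were above it on both 19-day arrays, while Cdh5 (-6.65 and -5.35) and Tie1 (-6.92 and -6.97) were not. Mast cell markers summed to 16.6 and 17.1 in P0 non-progenitors and to at most 1.01 elsewhere, with 2 of 5 measured genes higher at P0 in the GFP-negative cells. At 19 days 2 of the 7 on the array were above background, among them the protease Mcpt4, at -2.14 and -2.88 against -3.60 and -2.40 in P0 non-progenitors, while Cpa3 was not. Neutrophil markers summed to 16.1 and 13.0 there and to at most 0.688 elsewhere, with 5 of 8 higher, and 3 and 4 of the 8 were above background on the 19-day arrays, against 1 on each E11.5 array. Of 13 macrophage and leukocyte markers 5 were higher at P0. Their summed level was 308 and 333 in P0 non-progenitors, 337 and 331 in P0 progenitors, 385 and 359 at E11.5, 275 and 414 at 8 days and 203 and 262 at 19 days. Their mean log2 level, which weights the markers equally, was 0.23 and 0.45 in P0 non-progenitors, -1.74 and -1.77 in P0 progenitors and -1.96 and -1.67 at 19 days. The part of these cell types in the differences of the members was not tested.

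Markers of T cells and of trophoblast, where CTLA-2 and Plac8 are also known, had few calls. Of 12 T and NK cell markers 6 were measured and 0 passed limma's test in the 3 comparisons (1, 0 and 0 at an unadjusted p under 0.05), with a summed level between 4.51 and 8.34 over the 10 arrays. Of 14 trophoblast markers 9 were measured and 1, Elf5, was called, 5.19-fold higher in P0 non-progenitors than in P0 progenitors. The summed trophoblast level ran from 8.90 to 13.7, with 8.90 and 9.52 at 19 days. Of the 13 trophoblast markers on the array, 9 and 7 were above background on the 19-day arrays. The counts were 6 and 6 at E11.5, 6 and 7 at 8 days, 7 and 5 in P0 progenitors and 7 and 8 in P0 non-progenitors. Tpbpa was above background on no array.

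**Figure D4:**
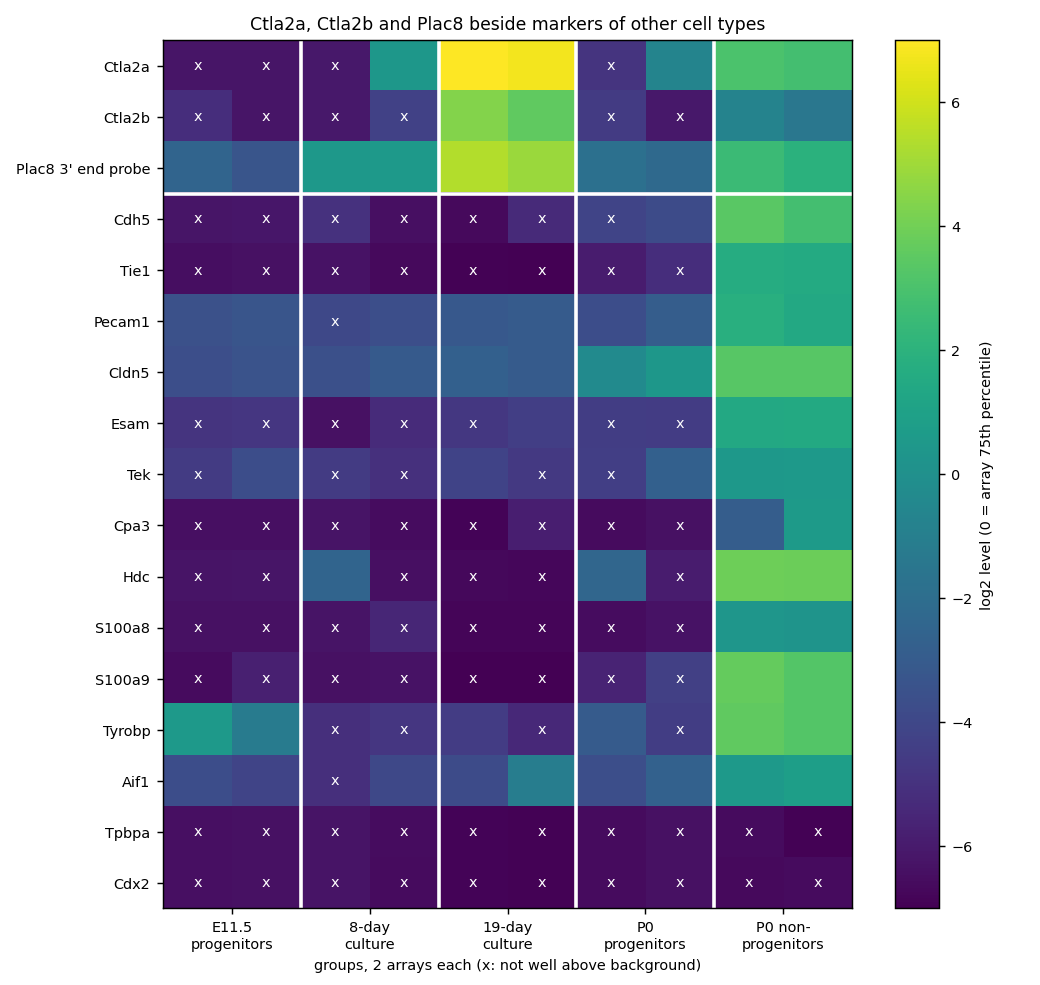
Levels of Ctla2a, Ctla2b and the Plac8 3′ probe above those of 14 markers of endothelial, mast, neutrophil, macrophage and trophoblast cells on the 10 arrays, as log2 relative to the array's 75th percentile, with x where a gene was not well above background. The markers shown were picked from longer lists. In P0 non-progenitors against P0 progenitors, 9 of 12 endothelial, 2 of 5 mast, 5 of 8 neutrophil and 5 of 13 macrophage markers were called higher. In P0 non-progenitors the 3 members and the endothelial, mast, neutrophil and macrophage markers shown are high together. At 19 days the members are high, Pecam1 and Cldn5 are above background, and Cdh5, Tie1, Cpa3 and S100a8 are not.

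The sorted cells were checked against their labels by Six2 and other progenitor markers. Six2 read 4.70 and 4.82 at E11.5, 4.27 and 4.11 in P0 progenitors, and -2.26 and, not above background, -4.55 in P0 non-progenitors. It was 5.21 and 4.61 at 8 days, and 1.06 and 2.32 at 19 days. The mean log2 level of 9 progenitor markers was 4.47 and 4.75 at E11.5, 4.66 and 4.51 in P0 progenitors and 1.54 and 1.44 in P0 non-progenitors. It was 2.90 and 2.89 at 8 days and -0.37 and 0.90 at 19 days. Of the 9, 5 were called lower and 0 higher in P0 non-progenitors than in P0 progenitors (limma), against 3.64% and 3.45% of all probes. Eya1, Sall1, Meox1 and Crym were not called, and the Eya1 probe read between 9.24 and 9.74 on all 10 arrays. In the 8-day culture 3 of the 9 were called lower than in P0 progenitors and 0 higher (limma, adjusted over all probes): Pax2 (85.6-fold), Cited1 (25.2-fold) and Meox1 (19.2-fold). Between 60.4% and 69.8% of spots were well above background per array, the 75th percentile of intensity lay between 220.4 and 340.6, and 0 spots were saturated. All freshly sorted cells and 8-day replicate 1 were on 1 slide, and 8-day replicate 2 and both 19-day arrays on the other. Slide and 19-day culture therefore cannot be told apart except through the 8-day pair. Quantile normalization changed the direction split of all calls, from 60% higher to 45.2% in 8-day culture against P0 progenitors, from 57.7% to 41.8% against P0 non-progenitors, and from 48.7% to 63.0% in P0 non-progenitors against P0 progenitors, and changed no member's call.

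The members also had like and unlike profiles among themselves over the 10 arrays, described here by Pearson's r with no test, since the arrays share groups. The 2 Plac8 probes correlated at 0.961, Plscr2 with Kng1 variant 2 at 0.949 and Ctla2a with Ctla2b at 0.905. The lowest of the 21 pairs was Plscr2 with Kng1 variant 1, at 0.576, where variant 1 is near background. Ctla2b was closer to the Plac8 5′ probe (0.951) than to Ctla2a. Ctla2b itself was not above background on any E11.5, P0 progenitor or 8-day array.

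Among 21704 other probes, the 5 closest to each gene's brightest probe were searched by the same measure. Such a search favours genes that were also high at 19 days, since the members were chosen for that. For Ctla2a they were Col8a1, a short-chain collagen (r = 0.966), Parva, Mitf, Fam13c and Cab39l (0.944). For Ctla2b they were Thbs1, thrombospondin (0.977), Mnda, Nov, Jade2 and the collagen Col6a2 (0.971). For Plac8 they were the collagen Col1a1 (0.990), Jdp2, Cd81, Myd88 and Cald1 (0.984). For Plscr2 they were the secreted glycoprotein Fstl1 (0.976), Kctd9, Lats2, Tm4sf1 and Mbd2 (0.960), and for Kng1 variant 2 the first 4 were the serine protease inhibitor Serpinb1a (0.986), Arap1, Cdc42ep5 and Rps6kl1 (0.968). No gene named here was on more than 1 of these lists.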

How the data were processed

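The authors deposited 1 scanner file per array, holding intensities that were extracted with Agilent Feature Extraction (version 11.5.1.1 per the headers) and not normalized between arrays. RNA was amplified as cDNA and labelled with Cy3, per the labels' protocols. The age at birth follows the labels (P0). In 1 file, that of P0 progenitors replicate 2, 62 gene names were altered, so names came from an E11.5 array, matched by probe.

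Control spots were left out and outlier-flagged spots treated as missing. Each array's log2 processed intensity was reduced by its 75th percentile over 59305 spots, and spots of a probe were averaged. The 39818 of 55681 probes that were detected on both arrays of some group (well above background) were tested with limma 3.58.1 in R 4.3.3 (with the package data.table, version 1.17.8) with 1 mean per group, all 10 arrays, an intensity trend, degrees of freedom of 5 (residual) and 2.52 (prior), and 2-sided p-values adjusted by Benjamini-Hochberg, with a threshold of 0.05. The number of arrays limits the precision. List genes were read through their tested probe with the highest mean. Sequences were handled with Biopython 1.88 in Python 3.11.15. The procedure was tested on simulated data.

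The members, lists and tests were chosen with earlier results of these data known. The text names all member probes, the 5 probes most like each gene's brightest probe (1 of those for Kng1 is not reported here), and list genes; the list genes described were selected after their values were seen. Same-numbered replicates did not deviate together, with correlations from -0.0168 to 0.0193 over 39807 probes.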

Additional observations from a re-analysis of the deposited data

Results flagged for a closer look

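For the Kng1 variant 1 probe, both 8-day arrays were below the E11.5 mean, by a mean of -0.81 log2 units, and both 19-day arrays were above it. The 8-day (-6.10 and -6.40) and E11.5 arrays (-4.68 and -6.20) overlapped, and the difference in means rests on the E11.5 array at -4.68. The difference between the culture times was not tested, and none of the 4 E11.5 and 8-day arrays was well above background for this probe. Groups of 2 arrays were not examined for an array standing apart.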

How the results depend on the processing

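Of the 7 probes, 4 were called between 8-day culture and P0 progenitors; 2 were called after normexp background correction, 2 of the 2 tested with a filter on all arrays, and 0 with a slide block, on slide 1 alone or in a fit of the compared groups alone, and 0 to 4 without single arrays (all 4 at an unadjusted p under 0.05 where 0 were called). Between 8-day culture and P0 non-progenitors 5 were called, 2 with the filter on all arrays, 3 in the groups alone, and 3 to 5 without single arrays. Between P0 non-progenitors and P0 progenitors 5 were called, 2 with that filter, and 3 to 6 without single arrays. The cause of these changes was not tested, except that fewer probes or arrays enter the filter, slide and group fits. A replicate block left 3, 5 and 5 calls, and Kng1 variant 2 against P0 progenitors at 8 days was the call it ended (adjusted p = 0.0561).

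In the 3 tested comparisons, directions changed for uncalled differences only. In 8-day culture against P0 progenitors, Ctla2a (-0.05) was 0.050 with quantile normalization, 0.29 with normexp, 0.79 with a floor and from -3.29 to 3.20 without single arrays. Ctla2b (0.16) was -0.091 with normexp, -0.76 with a slide block or slide 1 alone, and from -0.76 to 1.07 without single arrays. Kng1 variant 1 (-0.10) was 0.0090 with a floor, 0.053 with a slide block or slide 1 alone, and from -0.25 to 0.053 without single arrays. With a floor, Kng1 variant 1 was 0.36 in 8-day culture against P0 non-progenitors and -0.35 between the P0 groups. Among the described differences, with 49 alternative values each, the sign changed 5 times for 8-day culture and 5 times for P0 progenitors against E11.5 progenitors. It changed 4 times for P0 non-progenitors against E11.5 progenitors and 2 times for 19-day culture against P0 non-progenitors. For 19-day culture against E11.5 progenitors or 8-day culture it changed 0 times.

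Over all probes, 1395, 4529 and 2824 were called; the range was 386 to 1395, 2892 to 4831 and 1565 to 3469 over the alternatives with all arrays of the groups, and 150 to 1495, 2378 to 4821 and 774 to 2887 without single arrays.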
